A study of Mus musculus with 2 samples.

Results

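The 33 genes described here carry out and control glycolysis or belong to the response to low oxygen. They comprise 19 genes of glucose uptake, glycolysis and lactate handling and 14 genes of the hypoxia response, out of 55450 gene identifiers in the count matrices. They were chosen by name from the pathways, with earlier results of these data known, and all 33 had at least 1 UMI in both libraries. A UMI is a molecular barcode that marks 1 captured transcript, so UMIs count transcripts.

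Glycolysis splits glucose into pyruvate in the cytosol, and lactate dehydrogenase with a lactate exporter lets it run without oxygen. Low oxygen stops prolyl hydroxylases from marking the transcription factor HIF-1α for destruction, and HIF-1α then raises most glycolytic enzymes together with genes for mitophagy, lipid storage and angiogenesis. In myeloid cells HIF-1α is also raised by inflammatory signals, and hypoxic, lactate-rich tumour regions are a known setting of tumour macrophages.

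The study asked what the inwardly rectifying potassium channel Kir2.1, the product of Kcnj2, does in the tumour environment. CD45+ leukocytes were taken on day 10 from subcutaneous B16F10 tumours, a mouse melanoma line, and profiled with droplet 3′ single-cell RNA sequencing. The KO library held cells of Lyz2-Cre-Kcnj2f/f mice, also named Kcnj2CKO, in which Cre is driven from the Lyz2 gene, active in macrophages, monocytes and neutrophils. The WT library held cells of Kcnj2f/f mice, which carry the same floxed Kcnj2 but no Cre. Each library pooled 3 mice, so each genotype is 1 sample, no difference between genotypes can be tested, and mouse, library and genotype cannot be told apart.

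Filters on mitochondrial share, detected genes and marked doublets, the last with 2 KO and 0 WT cells, left 5686 KO and 8936 WT cells. Their medians were 8013 UMIs in KO cells and 4398.5 in WT cells. Marker genes named 16 classes, which are written with "-like". Of these, 12 had at least 50 cells in each library and were compared between genotypes, while 612 KO and 1809 WT cells had no name. The KO library held a larger share of macrophage-like cells, 916 cells or 16.1% of KO cells, against 586 cells or 6.56% of WT cells, and a smaller number of B-like cells, 398 KO and 1823 WT. Levels are given as CPM, the UMIs of a gene per 1000000 UMIs of the class. Kcnj2 had 84 UMIs in KO and 109 in WT macrophage-like cells, or 9.17 CPM in KO and 22.5 in WT, a log2 ratio of KO over WT of -1.30. The labels do not name the deleted exon, so these 3′ reads may lie outside it and need not test the deletion. Lyz2, into which Cre is inserted, was at 1716 CPM in KO and 8640 in WT macrophage-like cells.

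Each level below is the CPM of a gene over all cells of a class in 1 library, with an exact 95% Poisson interval where one is given. Ratios have exact conditional intervals and shares have Clopper-Pearson intervals. All of these cover counting error only, not mouse or library. A 3′ kit counts transcript ends, so these levels do not scale with transcript length. A member was compared between genotypes in a class where it had at least 100 UMIs over both libraries, and it is called higher or lower at a log2 ratio of at least 0.5 in size.

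The stretches before the start sites of 6 members are given because the shares of the 3 hexokinase genes differ between cell types, and because Ldha, Pgk1 and Bnip3 were high in the same clusters. Capitals mark ACGTG on either strand, the core of the motif that HIF binds. The sequences are RefSeq's on GRCm38.p6, 120 bases each, read along the gene's strand and lying within the 250 bases before the start. Hk1 is at chr10:62379909-62380028 on the minus strand, Hk2 at chr6:82774455-82774574 on the minus strand and Hk3 at chr13:55021422-55021541 on the minus strand. Ldha is at chr7:46845659-46845778 on the plus strand, Pgk1 at chrX:106186950-106187069 on the plus strand and Bnip3 at chr7:138909507-138909626 on the minus strand.
Hk1: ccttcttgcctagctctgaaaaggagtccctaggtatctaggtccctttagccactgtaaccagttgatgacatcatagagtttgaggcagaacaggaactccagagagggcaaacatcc
Hk2: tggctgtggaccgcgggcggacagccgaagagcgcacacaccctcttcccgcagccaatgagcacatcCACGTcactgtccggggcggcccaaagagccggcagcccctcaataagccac
Hk3: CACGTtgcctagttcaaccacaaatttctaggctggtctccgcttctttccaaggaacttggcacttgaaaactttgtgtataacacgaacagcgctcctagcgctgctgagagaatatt
Ldha: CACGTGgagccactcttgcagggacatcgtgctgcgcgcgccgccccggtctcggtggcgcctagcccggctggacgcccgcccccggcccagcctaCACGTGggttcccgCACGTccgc
Pgk1: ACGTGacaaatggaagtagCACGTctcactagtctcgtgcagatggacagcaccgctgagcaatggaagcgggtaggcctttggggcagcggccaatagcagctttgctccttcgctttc
Bnip3: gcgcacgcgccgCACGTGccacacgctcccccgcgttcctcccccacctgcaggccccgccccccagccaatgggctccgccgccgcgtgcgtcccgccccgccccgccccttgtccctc

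ACGTG was searched on both strands, so CACGTG, which reads the same on both, counts as 2 matches. The Ldha stretch held 5 matches, those of Pgk1 and Bnip3 held 2 each, those of Hk2 and Hk3 held 1 each, and that of Hk1 held none. The Hk1, Hk2 and Bnip3 stretches span 120 to 1 bases before the start. Those of Hk3, at 156 to 37, Ldha, at 145 to 26, and Pgk1, at 150 to 31, lie further out and begin on a match. Counts of differently placed stretches cannot be compared. Within 250 bases Hk2 held 2 matches and the other genes the same numbers as in their stretches. Over the whole 250 bases, 19 of the 31 members found in the RefSeq table held the motif, or 61.3%, against 4998 of 27025 genes, or 18.5%. By pathway, 9 of 12 hypoxia members and 10 of 19 glycolysis members held it. Ndrg1 and Ero1l were not matched. Many members are listed because they are known HIF targets, and the 27025 genes are all genes found and not a matched set. The contrast is therefore no test, and a match describes these letters only.

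Hexokinases trap glucose in the cell as glucose-6-phosphate, and the isoform in use differed between cell types. Macrophage-like cells used mostly Hk2, the inducible isoform, at 197 CPM (188 to 207) in KO and 203 CPM (190 to 216) in WT cells. It made up 63.3% of their hexokinase UMIs in KO and 68.3% in WT cells. Hk3, an isoform restricted largely to myeloid cells, came next in KO macrophage-like cells.
Hk3 was at 62.0 CPM (57.0 to 67.3) in KO and 44.6 CPM (38.9 to 51.0) in WT macrophage-like cells, or 19.9% (18.4 to 21.4) of hexokinase UMIs in KO and 15.01% (13.2 to 17.0) in WT cells. Its ratio of 0.47 (0.25 to 0.71) lies just under the limit of 0.5. In neutrophil-like cells the Hk3 share was 29.3% in KO and 20.8% in WT, on 41 hexokinase UMIs in KO and 168 in WT cells, and monocyte-like cells had 15.2% in KO and 19.1% in WT. In CD8 T-like cells Hk3 was at 2 UMIs in KO and 4 in WT cells.
Hk1, the constitutive isoform, made up most of the hexokinase UMIs of CD8 T-like, CD4 T-like, NK-like and regulatory T-like (Treg-like) cells. Its share was 60.6% (50.5 to 70.0) in KO and 72.1% (67.8 to 76.1) in WT CD8 T-like cells, 59.8% in KO and 61.3% in WT CD4 T-like cells, and 60.2% in KO and 62.9% in WT NK-like cells. B-like and gamma-delta T-like cells held more Hk2 instead, with 68.4% in KO and 53.6% in WT B-like cells and 66.7% in KO and 55.6% in WT gamma-delta T-like cells. Treg-like cells had an Hk1 share of 69.0% in KO and 59.8% in WT, and the highest Hk1 level of the 12 classes, 92.4 CPM (75.7 to 112) in KO and 68.2 CPM (51.4 to 88.8) in WT cells. In the KO library its interval lies above that of CD4 T-like cells, and in WT it overlaps that of gamma-delta T-like cells.

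**Figure D1:**
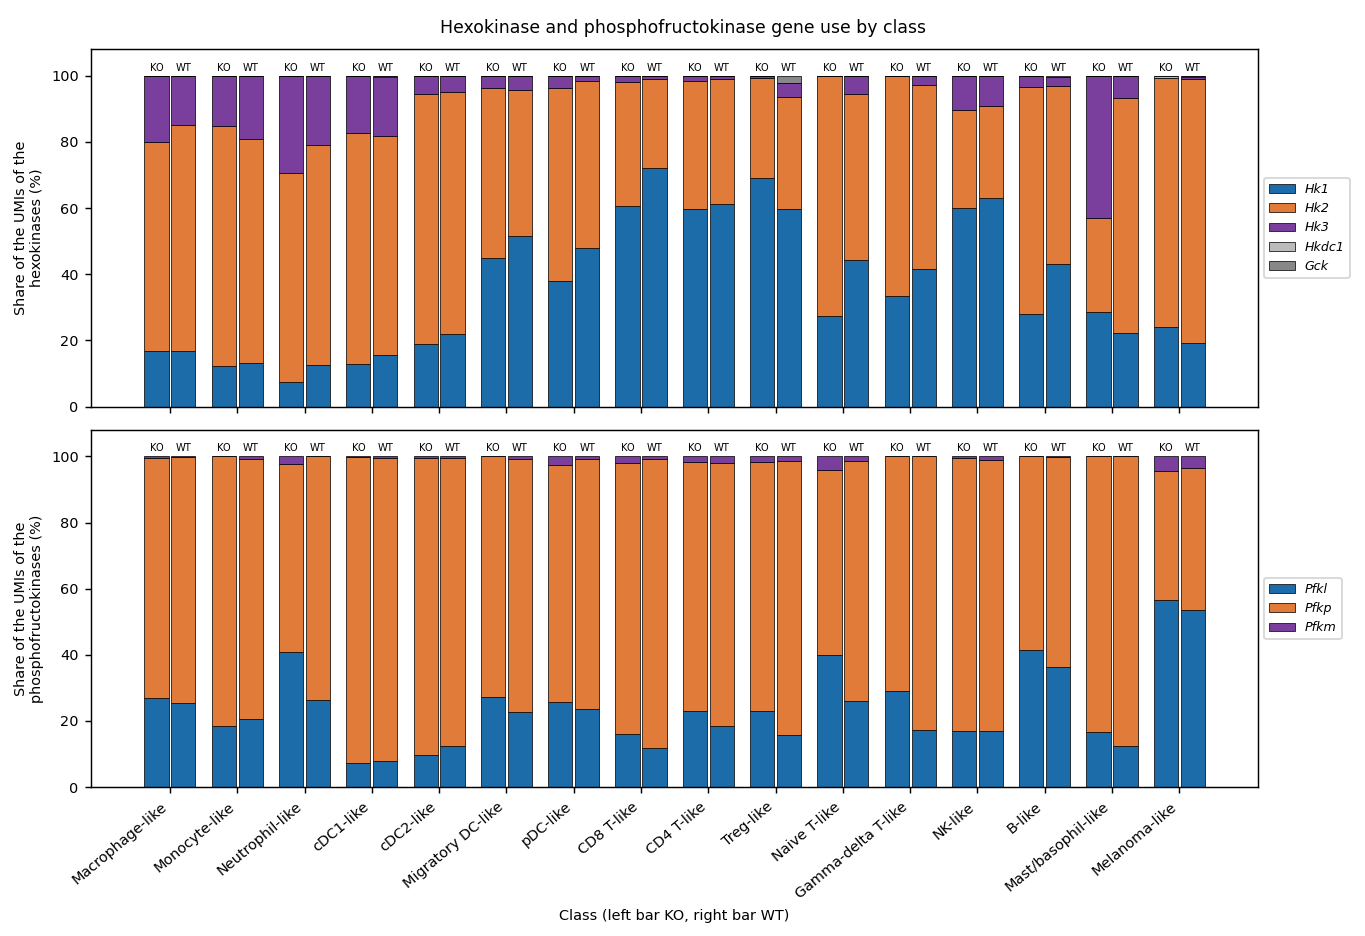
Stacked bars give the percent of a family's UMIs held by each isoform, for hexokinases and phosphofructokinases, in each class, with the KO bar left of the WT bar. Hk2 and Hk3 fill most of the hexokinase bars of macrophage-like, monocyte-like, neutrophil-like, cDC1-like and cDC2-like cells, Hk1 most of those of CD8 T-like, CD4 T-like, Treg-like and NK-like cells, and Pfkp takes 92.6% in KO and 91.8% in WT cDC1-like cells.

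Phosphofructokinase makes the committed step of glycolysis. Its platelet isoform Pfkp led in most classes and was highest in type 1 conventional dendritic (cDC1-like) cells, at 495 CPM (477 to 514) in KO and 422 CPM (398 to 447) in WT cells. Pfkp there made up 92.6% of the family in KO and 91.8% in WT cells, against 72.7% in KO and 74.4% in WT macrophage-like cells. The liver isoform Pfkl held most of the rest, and it led in the melanoma-like cells that had come through the sort, with 56.7% in KO and 53.5% in WT cells. The muscle isoform Pfkm had 12 UMIs in KO and 4 in WT macrophage-like cells.

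Pfkfb3 and Pfkfb4 make fructose-2,6-bisphosphate, which switches phosphofructokinase on. Pfkfb3 was highest in migratory dendritic (DC)-like cells, at 262 CPM (247 to 277) in KO and 230 CPM (211 to 249) in WT cells, and it made up 96.7% of the family's UMIs in KO and 96.8% in WT cells. Macrophage-like cells had less, 88.6 CPM in KO and 91.1 in WT cells. Pfkfb4 was low everywhere, and among the 12 compared classes it held its largest shares in plasmacytoid dendritic (pDC)-like cells, 49.2% in KO and 63.2% in WT, and in B-like cells, 52.2% in KO and 40.2% in WT.

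The glucose transporter also differed between cell types. Slc2a1, which codes for GLUT1, was highest in macrophage-like cells among the 12 compared classes. It was at 165 CPM (157 to 173) there in KO and 163 CPM (152 to 174) in WT. Monocyte-like cells followed at 55.5 CPM in KO and 52.9 in WT, and the intervals of these classes do not overlap in either library. Neutrophil-like cells, too few to compare, had 338 CPM in KO, on 26 UMIs, and 191 in WT, on 81. Their WT interval overlaps that of macrophage-like cells. Slc2a1 made up 82.7% in KO and 83.8% in WT of the UMIs of Slc2a1, Slc2a3 and Slc2a6 in macrophage-like cells. CD8 T-like cells used Slc2a3, the GLUT3 gene, with 74.8% in KO and 77.7% in WT, and migratory DC-like cells used Slc2a6, with 71.1% in KO and 58.6% in WT.

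The remaining enzymes of the pathway were present in every compared class and highest in macrophage-like or Treg-like cells. Gapdh, which makes the first high-energy phosphate intermediate, was at 3070 CPM in KO and 3052 in WT macrophage-like cells, a log2 ratio of 0.01 (-0.02 to 0.04). Pkm, the last step to pyruvate, was at 1317 CPM in KO and 1217 in WT, and Aldoa, the aldolase, at 966 CPM in KO and 1051 in WT. Macrophage-like cells of both libraries thus sat close together on these enzymes. Ldha, which turns pyruvate into lactate, was at 894 CPM in KO and 988 in WT macrophage-like cells, Eno1, the enolase, at 821 CPM in KO and 760 in WT, and Pgk1, phosphoglycerate kinase, at 695 CPM in KO and 739 in WT. Tpi1, triose phosphate isomerase, was at 603 CPM in KO and 608 in WT, Gpi1, glucose-6-phosphate isomerase, at 440 CPM in KO and 508 in WT, and Pgam1, the mutase, at 414 CPM in KO and 412 in WT. The 19 glycolysis members summed to 10337 CPM in KO and 10400 in WT macrophage-like cells.

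Reads of 3 members could be shared with near-identical copies. Gapdh has 120 annotated copies with at least 95% identity to its 3′ end, Mif has 2 and Eno1 has 1, and none of these sets of copies held over 5% of its gene's UMIs.

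Isoforms of the lower pathway also differed between cell types. Migratory DC-like cells used Eno3, the muscle enolase, for 59.9% of enolase UMIs in KO and 61.0% in WT, and Eno1 for 36.9% in KO and 36.4% in WT. pDC-like cells used Ldhb for 19.4% of lactate dehydrogenase UMIs in KO and 19.3% in WT, against 0.667% in KO and 0.870% in WT macrophage-like cells. Melanoma-like cells had 18.2% in KO and 14.9% in WT. Aldoc made up 13.01% of aldolase UMIs in KO and 14.6% in WT pDC-like cells, and 10.2% in KO and 7.76% in WT cDC1-like cells.

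Slc16a3 codes for MCT4, the lactate exporter of glycolytic cells. It was at 178 CPM in KO and 157 in WT macrophage-like cells, and made up 92.2% of the monocarboxylate transporter UMIs in KO and 91.8% in WT cells. CD8 T-like cells used Slc16a1, the MCT1 gene, with 67.7% in KO and 66.4% in WT. Pdk1, a kinase that inhibits pyruvate dehydrogenase, ran the other way from Slc16a3 between macrophage-like and CD8 T-like cells, though not across all classes. It was at 19.1 CPM in KO and 20.9 in WT macrophage-like cells, against 49.6 CPM in KO and 28.3 in WT CD8 T-like cells.

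Hif1a, the gene of HIF-1α itself, was not highest in macrophage-like cells. Treg-like cells led in both libraries, at 1013 CPM (956 to 1073) in KO and 748 CPM (689 to 810) in WT. Macrophage-like cells had 667 CPM (650 to 684) in KO and 529 CPM (509 to 550) in WT, and CD4 T-like cells had 648 CPM in KO and 560 in WT. cDC1-like cells were lowest of the 12, at 98.0 CPM in KO and 90.6 in WT.

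The prolyl hydroxylases differed in balance. Egln1 codes for PHD2, the main oxygen sensor, and was at 49.99 CPM in KO and 30.4 in WT macrophage-like cells. Egln3 codes for PHD3, itself a HIF target, and was at 43.8 CPM (39.6 to 48.3) in KO and 55.1 CPM (48.7 to 62.2) in WT macrophage-like cells. Egln1 thus made up 43.7% (40.7 to 46.8) of the 3 hydroxylase genes' UMIs in KO and 29.6% (25.6 to 33.8) in WT macrophage-like cells, and Egln3 38.3% (35.3 to 41.3) in KO and 53.7% (49.2 to 58.2) in WT. In neutrophil-like cells Egln3 held 92.9% in KO, on 14 UMIs of the family, and 77.2% in WT, on 123.

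Among the HIF targets, Hilpda, which codes for a lipid-droplet protein that blocks fat breakdown, had the highest level in both macrophage-like and neutrophil-like cells. It was at 1039 CPM (1018 to 1060) in KO and 913 CPM (886 to 940) in WT macrophage-like cells, and at 2812 CPM (2449 to 3213) in KO and 1859 CPM (1731 to 1993) in WT neutrophil-like cells. The 5 neutrophil-like cells with the most Hilpda UMIs held 87.5% of them in KO, where the class has 25 cells, and 30.5% in WT, where it has 144. With every cell thinned to 1000 UMIs and shallower cells left out, a Hilpda UMI was found in 37.5% (34.3 to 40.8) of macrophage-like cells in KO and 31.3% (27.5 to 35.3) in WT, against 2.997% of B-like cells in KO and 3.25% in WT. That left out 12 KO and 14 WT macrophage-like and 31 KO and 409 WT B-like cells. Before thinning, macrophage-like cells with a Hilpda UMI were 67.1% in KO and 57.7% in WT, at median depths of 9836 UMIs in KO and 8435.5 in WT, and the B-like medians were 3172 in KO and 2435 in WT.

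Bnip3, a mitophagy receptor, was at 190 CPM in KO and 201 in WT macrophage-like cells, and higher in neutrophil-like cells, at 378 CPM in KO and 400 in WT. It held 69.1% in KO and 70.5% in WT of the UMIs of Bnip3 and its relative Bnip3l in macrophage-like cells, against 6.86% in KO and 8.37% in WT CD8 T-like cells. Ero1l, an oxidase of protein folding, was at 220 CPM in KO and 235 in WT macrophage-like cells. Ndrg1, a stress-response gene, was at 155 CPM in KO and 143 in WT, Higd1a, a mitochondrial protein gene, at 230 CPM in KO and 227 in WT, and P4ha1, a collagen prolyl hydroxylase, at 93.3 CPM in KO and 105 in WT macrophage-like cells. These sat within a narrow band between libraries. Mif, a cytokine gene, was at 607 CPM in KO and 723 in WT, Ddit4, an inhibitor of mTORC1, at 62.5 CPM in KO and 45.4 in WT, and Ankrd37 at 36.7 CPM in KO and 42.5 in WT macrophage-like cells.

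Adm, which codes for the vasodilator peptide adrenomedullin, did not follow the other targets. It was at 5.24 CPM in KO and 4.96 in WT macrophage-like cells, and among the 12 compared classes of the WT library it was highest in B-like cells, at 49.0 CPM (43.4 to 55.1), against 12.6 CPM (7.47 to 19.9) in KO B-like cells. Among the classes too small to compare, it was at 72.5 CPM in WT melanoma-like and 52.1 CPM in KO neutrophil-like cells, the KO value on 4 UMIs. Car9, a carbonic anhydrase of hypoxic tumour cells, lay mostly in melanoma-like cells, which held 61.2% of its UMIs in KO and 67.5% in WT. Those cells numbered 43 in KO and 62 in WT, with median UMIs of 112617 in KO and 9635 in WT.

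**Figure D2:**
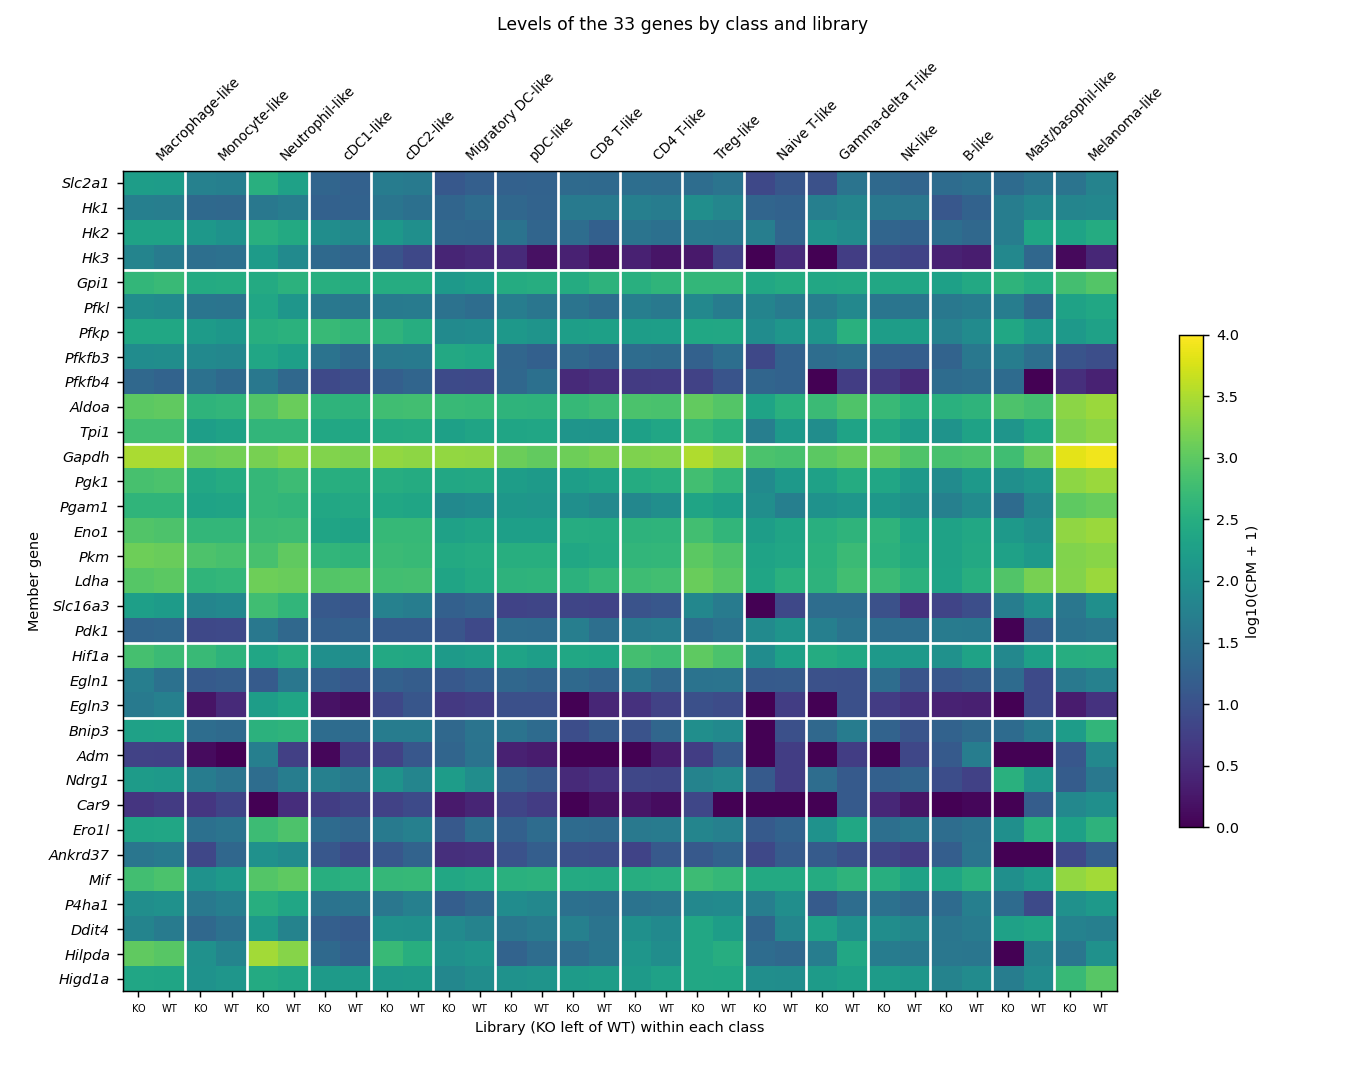
Colour gives the level of each of the 33 members, as log10 of CPM + 1, in each named class, with the KO column left of the WT column. Macrophage-like, neutrophil-like and melanoma-like columns are bright, that is high, for most members, Hif1a is brightest in Treg-like cells, and Adm is brightest outside the macrophage-like columns.

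Of the 33 members, macrophage-like cells were highest among the 12 classes for 18 in the KO library and 21 in the WT library. Slc2a1, Hk2, Tpi1, Pgk1, Pgam1, Eno1, Pkm, Slc16a3, Egln3, Bnip3 and Hilpda led there in both libraries with intervals above those of the next class. Aldoa, Gapdh and Ldha led in Treg-like cells in KO and in macrophage-like cells in WT, and the WT Ldha intervals of those classes overlap. Among classes too small to compare, melanoma-like cells had the highest summed glycolysis level, 20712 CPM in KO and 25117 in WT, with 8839 CPM in KO and 9347 in WT neutrophil-like cells. The summed hypoxia level was 5949 CPM in KO and 5267 in WT neutrophil-like cells, and 3757 CPM in KO and 5444 in WT melanoma-like cells. Neutrophil-like cells thus led in KO and melanoma-like cells in WT. The KO neutrophil-like sum rests on 457 UMIs of 25 cells, and 5 of these cells held most of the Hilpda UMIs.

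Macrophage-like cells formed 2 clusters. Cluster 6 held 856 KO and 509 WT cells and was led by Arg1, Ccl7, Ccl2 and Cxcl1, and cluster 22 held 60 KO and 77 WT cells and was led by Ccl8, Pf4, Saa3 and C1qa. Cluster 22 had the higher glycolysis sum, 13876 CPM in KO and 12416 in WT, against 10234 CPM in KO and 10256 in WT cells of cluster 6. It had the lower hypoxia sum, 2428 CPM in KO and 2300 in WT, against 3432 CPM in KO and 3328 in WT cells of cluster 6.
Single members parted in both directions, also within the glycolysis genes. Hilpda was at 151 CPM in KO and 241 in WT cells of cluster 22, against 1065 CPM in KO and 961 in WT cells of cluster 6, and Hk2 at 31.0 CPM in KO and 105 in WT cells of cluster 22, against 202 CPM in KO and 210 in WT cells of cluster 6. The cluster 22 values rest on 39 KO and 78 WT UMIs of Hilpda and on 8 KO and 34 WT UMIs of Hk2. Median depth was 3516.5 UMIs in KO and 2571 in WT cells of cluster 22, against 10194 in KO and 8929 in WT cells of cluster 6. Aldoa was at 1719 CPM in KO and 1725 in WT cells of cluster 22, against 944 CPM in KO and 1002 in WT cells of cluster 6, and Mif, a hypoxia member, at 1359 CPM in KO and 1128 in WT cells of cluster 22, against 586 CPM in KO and 694 in WT cells of cluster 6. The clusters were built without the members, so these values did not shape them. The name of cluster 6 is less firm than that of cluster 22: at a coarser clustering resolution of 0.6, 1360 of its 1365 cells had no name, leaving 56 KO and 72 WT macrophage-like cells.

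Across clusters of at least 50 cells the glycolysis and hypoxia sums went together. Pearson's r was 0.91 and Spearman's rho 0.77 over 17 KO clusters, and r was 0.89 and rho 0.86 over 27 WT clusters. Clusters of 1 library share its depth, its free RNA and its scaling, so this describes the data and carries no test. Ldha and Pgk1 went together most closely among the glycolysis pairs computed, with r of 0.89 in KO and 0.90 in WT, while Adm and Slc2a1 had r of 0.10 in KO and 0.11 in WT. Egln3 and Bnip3 had r of 0.91 in KO and 0.66 in WT.

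**Figure D3:**
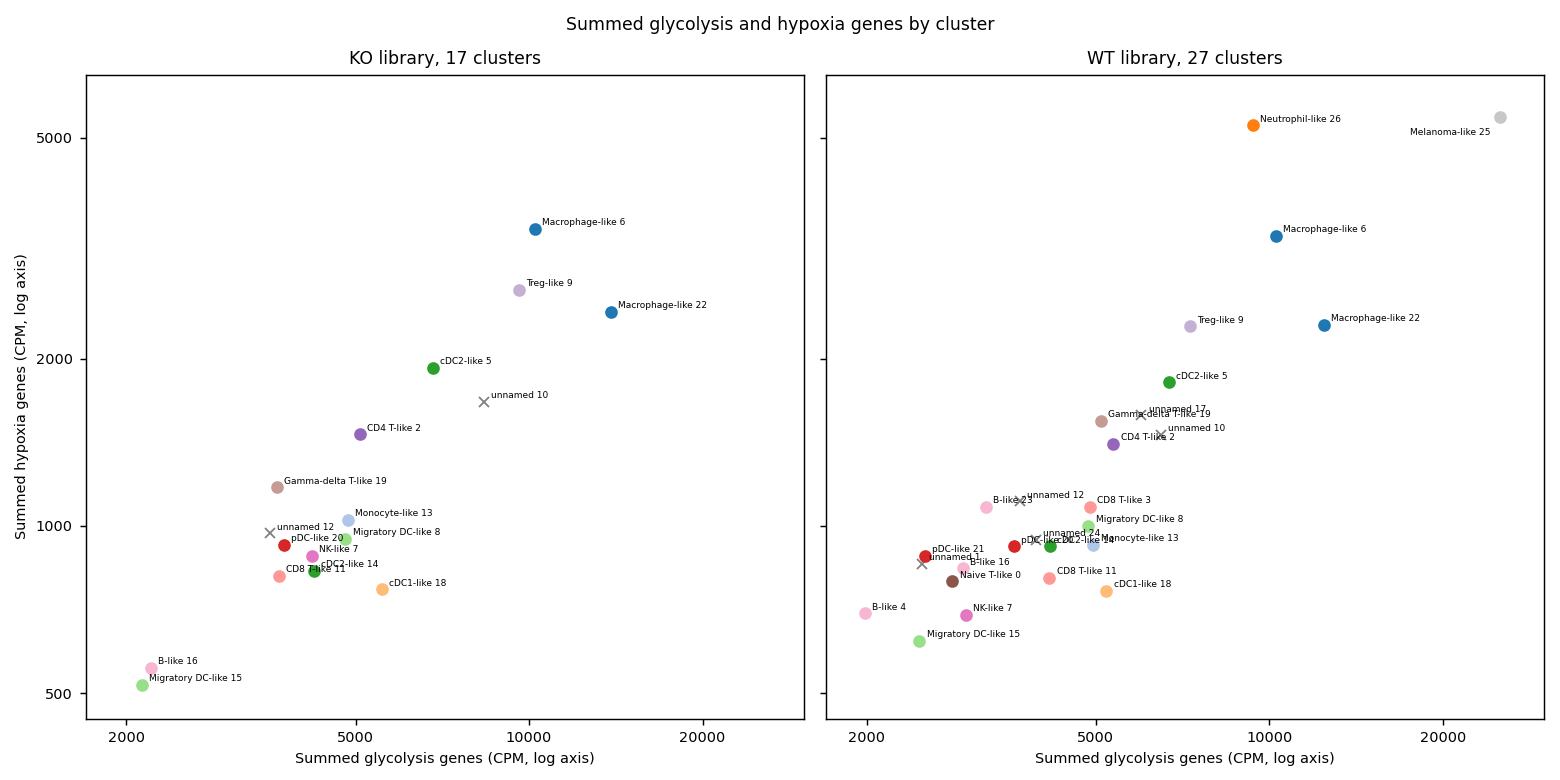
Each point is a cluster of at least 50 cells, with the summed CPM of the glycolysis members on the x axis and of the hypoxia members on the y axis (both log axes), crosses for unnamed clusters, KO clusters in the left panel and WT clusters in the right. Both panels rise to the right, with r of 0.91 over 17 KO clusters and 0.89 over 27 WT clusters, and the macrophage-like clusters lie to the upper right.

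Between genotypes, macrophage-like cells differed little in these genes. Of the 31 members with enough UMIs, 1 was higher in KO and none was lower. Of all 7763 genes compared in the class 12.3% were past the limit, 7.33% higher and 4.92% lower, so the members' share is below that background. Their median log2 ratio was 0.01, against 0.02 over all genes.
Egln1 was the member past the limit, with a ratio of 0.72 (0.448 to 0.997) on 458 UMIs in KO and 147 in WT cells. With the mean of per-cell CPM its ratio was 0.45. Below the limit, Hk3 was at 0.47, Ddit4 at 0.46, Hif1a at 0.33 (0.27 to 0.40) and Hilpda at 0.19 (0.14 to 0.24), and Egln3 was the lowest member at -0.33 (-0.56 to -0.10). The other pathway genes of macrophage-like cells moved in a few places. Of 13 further glycolysis genes with enough UMIs, of 31 listed, Slc16a7 was higher, at 8.73 CPM in KO and 4.34 in WT, and Slc16a1 lower, at 6.33 CPM in KO and 9.71 in WT. Of 24 further hypoxia genes, of 30 listed, 3 were higher and 2 lower. Vegfa, the angiogenic factor, was at 376 CPM in KO and 259 in WT (ratio 0.54, 0.44 to 0.63), Cited2, a HIF-induced inhibitor of HIF, at 232 CPM in KO and 149 in WT (0.64), and Ier3, an early-response gene, at 3153 CPM in KO and 2191 in WT (0.53). Among the lower ones, Hmox1, heme oxygenase, was at 657 CPM in KO and 1091 in WT (-0.73).
Genes that respond to tissue dissociation moved with these. Their sum was 14590 CPM in KO and 11103 in WT macrophage-like cells, 4 of 10 were higher and none lower, and Egr1 was at 1545 CPM in KO and 528 in WT. Markers of other cells also differed in this class: the 7 B-cell markers summed to 18.4 CPM in KO and 157 in WT, all 7 detected in both, and the neutrophil markers to 88.3 CPM in KO, with 6 of 8 detected and Retnlg and Mmp9 at 0, and 208 CPM in WT, with 8 of 8 detected. Their part in the results was not tested.

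**Figure D4:**
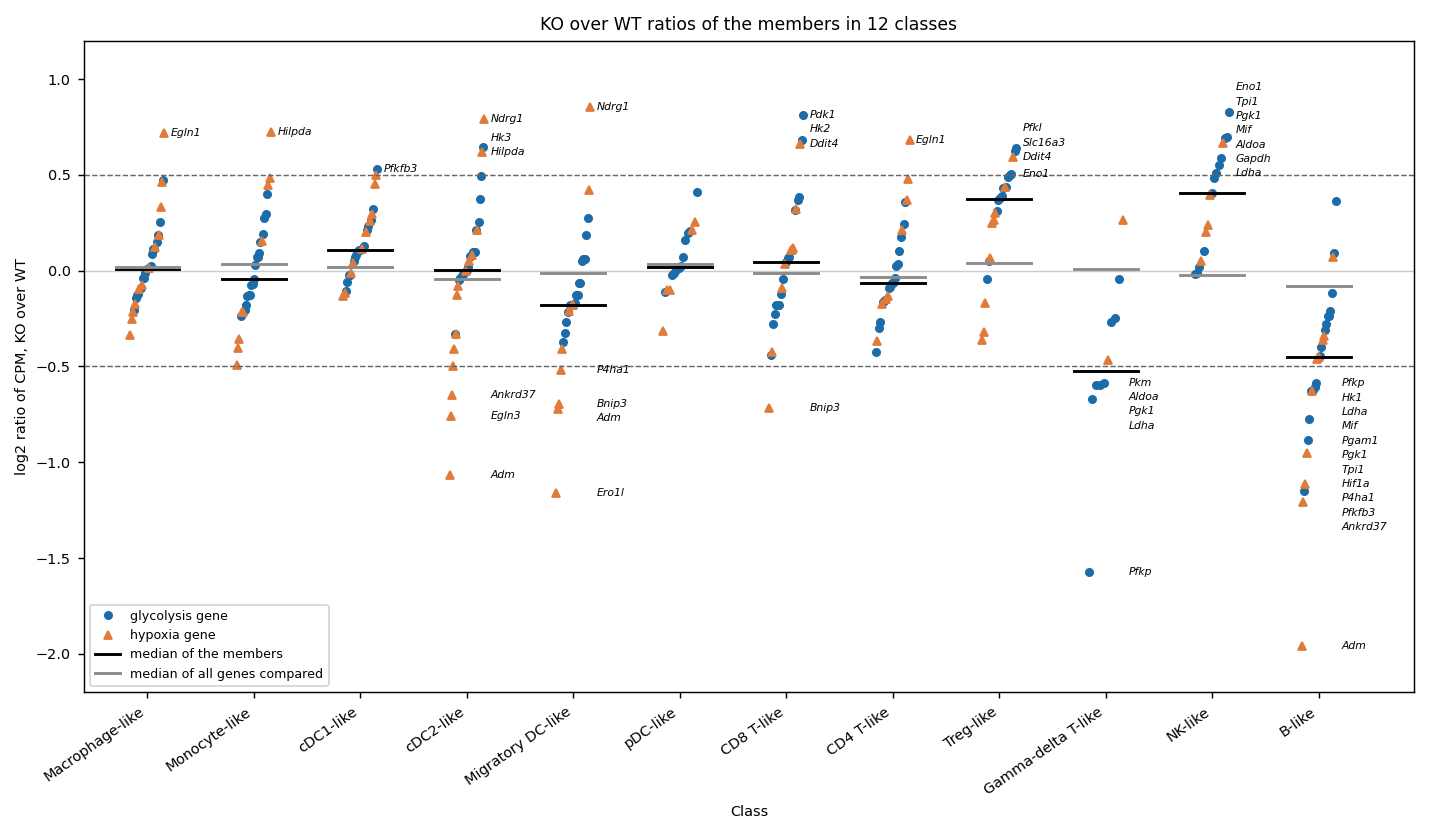
Points give the log2 ratio of KO over WT CPM of each member with enough UMIs in each of the 12 compared classes, with circles for glycolysis genes and triangles for hypoxia genes. Black bars are the median of the members, grey bars the median of all genes compared, and dashed lines mark ratios of 0.5 and -0.5. Macrophage-like members sit around 0, with a median of 0.01, NK-like members mostly above 0, with a median of 0.40, and B-like members mostly below, with a median of -0.45.

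Monocyte-like, cDC1-like, CD4 T-like and pDC-like cells were likewise close between genotypes. In monocyte-like cells 1 of 27 members was past the limit, against 13.2% of all genes: Hilpda, at 104 CPM in KO and 62.9 in WT (0.73, 0.39 to 1.07). In cDC1-like cells 1 of 27 was, against 7.19% of all genes: Pfkfb3, at 32.5 CPM in KO and 22.5 in WT (0.53, 0.10 to 0.98). In CD4 T-like cells 1 of 24 was, against 8.76% of all genes: Egln1, at 34.8 CPM in KO and 21.7 in WT (0.68). In pDC-like cells none of 16 was, against 7.38% of all genes. Each of these member shares is below the share of all genes in its class. The members' median ratio was -0.04 in monocyte-like, 0.11 in cDC1-like, -0.06 in CD4 T-like and 0.02 in pDC-like cells, and the median over all genes was 0.04 in monocyte-like, 0.02 in cDC1-like, -0.03 in CD4 T-like and 0.04 in pDC-like cells.

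Type 2 conventional dendritic (cDC2-like) cells, where all 33 members had enough UMIs, had 3 higher and 3 lower, together 18.2% of the members, against 10.7% of all genes, 4.88% higher and 5.79% lower. The higher ones were Ndrg1, at 113 CPM in KO and 65.3 in WT (0.79, 0.65 to 0.94), Hilpda, at 499 CPM in KO and 325 in WT (0.62, 0.55 to 0.68), and Hk3, at 9.91 CPM in KO and 6.35 in WT (0.64). The lower ones were Adm, at 5.26 CPM in KO and 11.01 in WT (-1.07), Egln3, at 6.35 CPM in KO and 10.8 in WT (-0.76), and Ankrd37, at 11.3 CPM in KO and 17.7 in WT (-0.65). Hypoxia targets thus lay on both sides in the same cells, and the members' median was 0.01, against -0.04 over all genes. Hk2 was just inside the limit, at 136 CPM in KO and 96.6 in WT (0.49, 0.37 to 0.62). Migratory DC markers summed to 1064 CPM in KO and 571 in WT cDC2-like cells, 8 of 8 detected in both, and their part in the result was not tested. In the largest cluster of the class, with 962 KO and 490 WT cells, 1 member was higher and 3 were lower.

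In migratory DC-like cells Ndrg1 was again higher in KO, at 163 CPM in KO and 90.2 in WT (0.86, 0.64 to 1.08). In all 5 of 25 members were past the limit, against 9.97% of all genes, 4.29% higher and 5.68% lower, and the other 4 were lower hypoxia targets. Ero1l was at 11.9 CPM in KO and 26.6 in WT (-1.16), Adm at 19.3 CPM in KO and 31.8 in WT (-0.72), Bnip3 at 21.1 CPM in KO and 34.2 in WT (-0.70), and P4ha1 at 14.4 CPM in KO and 20.7 in WT (-0.52, -1.07 to 0.04). Each of these 4 rests on 52 to 92 KO UMIs. The members' median was -0.18, against -0.01 over all genes. With the highest 6% of doublet scores left out Bnip3 was at -0.44 and Adm at -0.41, within the limit, while Ero1l and P4ha1 had too few UMIs to be compared. B-cell markers summed to 10.1 CPM in KO and 146 in WT migratory DC-like cells, 7 of 7 detected in both, CD8 T markers to 101.3 CPM in KO and 267 in WT, 6 of 6 detected in both, and cell-cycle genes to 82.3 CPM in KO and 148 in WT, 12 of 12 detected in both. Their part in the result was not tested.

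CD8 T-like cells had 3 of 25 members higher and 1 lower, against 13.1% of all genes in either direction, 6.42% higher and 6.69% lower, a share of 16.0% for the members, whose median was 0.04, against -0.01 over all genes. Pdk1 was at 49.6 CPM in KO and 28.3 in WT (0.81, 0.41 to 1.19), and Ddit4 at 53.6 CPM in KO and 33.9 in WT (0.66, 0.29 to 1.03). Hk2 was at 25.8 CPM in KO and 16.1 in WT (0.68, 0.12 to 1.21), on 39 KO UMIs of which 5 cells held 53.8%. Without the 5 top cells of each library its ratio was -0.22. Bnip3 was at 7.94 CPM in KO and 13.1 in WT (-0.72, -1.72 to 0.15), on 12 KO UMIs. Pdk1 made up 84.3% of the pyruvate dehydrogenase kinase UMIs in KO and 63.9% in WT CD8 T-like cells.

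In Treg-like cells a few members were higher in the KO library. The glycolysis sum was 9596 CPM (9419 to 9777) in KO and 7285 CPM (7100 to 7474) in WT, and the hypoxia sum 2665 CPM in KO and 2289 in WT. Of 22 members 4 were higher and none lower, or 18.2%, against 13.8% of all genes in either direction, 6.81% higher and 6.94% lower, and the members' median was 0.37, against 0.04 over all genes. The 4 were Pfkl, at 73.4 CPM in KO and 47.1 in WT (0.64, 0.07 to 1.23), Slc16a3, at 70.8 CPM in KO and 45.9 in WT (0.63, 0.05 to 1.23), Ddit4, at 250 CPM in KO and 166 in WT (0.59, 0.29 to 0.90), and Eno1, at 606 CPM in KO and 427 in WT (0.51, 0.32 to 0.70). Gapdh was just inside, at 3371 CPM in KO and 2387 in WT (0.498, 0.419 to 0.577). Of 9 further hypoxia genes 4 were higher and none lower, namely Fam162a at 124 CPM in KO and 69.5 in WT, Anxa2 at 758 CPM in KO and 460 in WT, Nfil3 at 72.6 CPM in KO and 42.2 in WT, and Mxi1 at 73.4 CPM in KO and 47.1 in WT. None of 4 further glycolysis genes was past the limit. Eno1 was within the limit in 4 of 11 other settings, down to 0.32, Ddit4 in 3 of 11, down to 0.31, and Pfkl in 1 of 7, at 0.28 with per-cell means. The class has 124 KO and 91 WT cells, and its 12 cell-cycle genes summed to 802 CPM in KO, with 12 of 12 detected, and 543 CPM in WT, with 11 of 12 detected and Ccna2 at 0. Its own Treg markers summed to 5604 CPM in KO and 4016 in WT, 6 of 6 detected in both. The cDC2 markers summed to 682 CPM in KO, with 6 of 7 detected and Clec4a4 at 0, and 976 CPM in WT, with 7 of 7 detected, B-cell markers to 92.4 CPM in KO and 156 in WT, 7 of 7 detected in both, and Lyz2 was at 8.64 CPM in KO and 162 in WT. Their part in the result was not tested.

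NK-like cells had the largest share of members higher in KO among the 12 compared classes. Of 17 members 7 were higher in KO and none lower, or 41.2%, against 7.57% of all 4293 genes in either direction, 3.14% higher and 4.43% lower. The members' median ratio was 0.40, against -0.02 over all genes. Of the 7, 6 are enzymes of glycolysis and 1 is Mif.
Eno1 was at 406 CPM in KO and 228 in WT (0.83, 0.64 to 1.02), on 687 KO and 337 WT UMIs. Tpi1 was at 260 CPM in KO and 160 in WT (0.70), and Pgk1 at 231 CPM in KO and 143 in WT (0.69). Mif was at 318 CPM in KO and 200 in WT (0.66), and Aldoa at 515 CPM in KO and 343 in WT (0.59). All of these lay above their WT values by more than the counting error.
Gapdh was at 1176 CPM in KO and 804 in WT (0.55, 0.45 to 0.65), and Ldha at 523 CPM in KO and 368 in WT (0.51, 0.35 to 0.66). The glycolysis sum was 4205 CPM (4108 to 4304) in KO and 2971 CPM (2884 to 3061) in WT.
The count depended on the handling of cells. The 5 top KO cells held 26.3% of the Gapdh UMIs, against 11.96% for the 5 top WT cells, and without the 5 top cells of each member and library 3 members were higher. The class's median was 4565 UMIs in 316 KO cells and 3657 in 356 WT cells. With the cells of both libraries that lay above the WT median thinned to it, 1 member, Eno1, was higher. Neutrophil markers summed to 12.99 CPM in KO NK-like cells, with 7 of 8 detected and Retnlg at 0, and 242 CPM in WT, with 8 of 8 detected. B-cell markers summed to 13.6 CPM in KO, with 6 of 7 detected and Pax5 at 0, and 210 CPM in WT, with 7 of 7 detected. Their part in the result was not tested. None of 4 further glycolysis genes was past the limit in NK-like cells. Of 12 further hypoxia genes 2 were higher, Vegfa at 46.1 CPM in KO and 29.8 in WT, and Nfil3 at 55.5 CPM in KO and 37.9 in WT. The 3 lower ones were Cited2 at 54.3 CPM in KO and 80.6 in WT, Ier3 at 37.2 CPM in KO and 56.2 in WT, and Hmox1 at 4.13 CPM in KO and 129 in WT.

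In B-like cells members past the limit were lower in KO. Of 27 members 12 were lower and none higher, or 44.4%, against 16.2% of all 6603 genes in either direction, 4.57% higher and 11.6% lower, and the members' median was -0.45, against -0.08 over all genes. The lower glycolysis members were 7. Pfkfb3 was at 17.5 CPM in KO and 38.8 in WT (-1.15, -1.81 to -0.55), Tpi1 at 111 CPM in KO and 204 in WT (-0.88, -1.13 to -0.64), and Pgk1 at 85.5 CPM in KO and 146 in WT (-0.77). Their intervals lie below 0.
Pgam1 was at 53.9 CPM in KO and 83.4 in WT (-0.63), Ldha at 207 CPM in KO and 318 in WT (-0.62), and Pfkp at 55.3 CPM in KO and 83.2 in WT (-0.59). Hk1, on 16 KO UMIs, was at 11.2 CPM in KO and 17.1 in WT (-0.61, -1.47 to 0.16), with an interval that crosses 0.
Of the hypoxia members 5 of 10 were lower. Adm was at 12.6 CPM in KO and 49.0 in WT (-1.96, -2.73 to -1.27), on 18 KO UMIs of which 5 cells held 83.3%. In WT 221 of its 275 UMIs lay in cluster 23, led by Igkc and Igha, which held 19 KO and 354 WT cells. Ankrd37 was at 14.7 CPM in KO and 34.0 in WT (-1.21), and P4ha1 at 23.8 CPM in KO and 51.5 in WT (-1.11). Both kept a ratio past the limit in every other setting that gave a value. Hif1a was at 103 CPM in KO and 199 in WT (-0.95), and Mif at 224 CPM in KO and 346 in WT (-0.63).
The class mixes 3 clusters in unequal parts, so the largest was also taken alone. In cluster 16, with 333 KO and 967 WT cells, 11 of 21 members were lower and none higher, against 8.84% of all genes in either direction and 5.97% lower, and the median was -0.55. Hif1a's ratio there was -0.35. Over the whole class, plasma-cell markers summed to 3984 CPM in KO and 1499 in WT, 5 of 5 detected in both, and their part in the result was not tested.

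Gamma-delta T-like cells, with 53 KO and 65 WT cells, had 10 members with enough UMIs, of which 5 were lower and none higher, against 12% of all 625 genes in either direction, 3.52% higher and 8.48% lower. Pfkp was at 118 CPM in KO and 350 in WT (-1.57, -2.26 to -0.93), on 27 KO and 82 WT UMIs. Ldha was at 384 CPM in KO and 611 in WT (-0.67), Aldoa at 528 CPM in KO and 799 in WT (-0.60), Pgk1 at 192 CPM in KO and 291 in WT (-0.60), and Pkm at 353 CPM in KO and 530 in WT (-0.58). All 5 are glycolysis members, and the median of the 10 was -0.52, against 0.01 over all genes. Without the 5 top cells Aldoa, Pgk1 and Ldha were within the limit, and neutrophil markers summed to 4.36 CPM in KO, with 1 of 8 detected and S100a8, Csf3r, Cxcr2, Retnlg, Mmp9, G0s2 and Hdc at 0, and 197 CPM in WT, with 7 of 8 detected and Mmp9 at 0. Their part in the result was not tested.

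**Figure D5:**
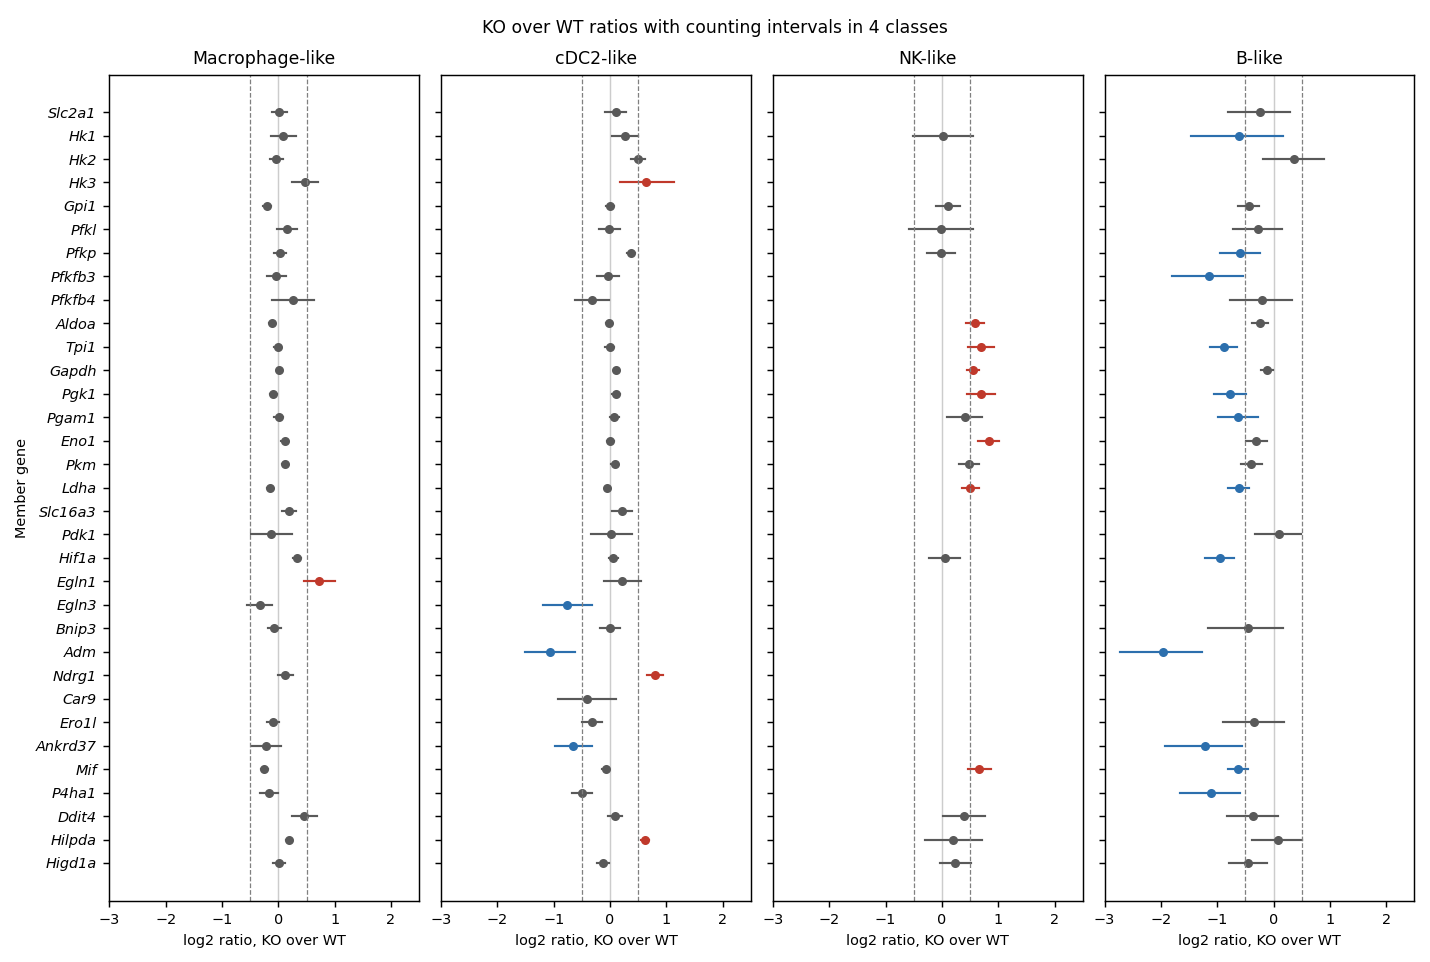
Points give each member's log2 ratio of KO over WT CPM with its exact 95% interval, which covers counting error only, in macrophage-like, cDC2-like, NK-like and B-like cells. Most macrophage-like intervals are narrow and near 0, Eno1 reaches 0.83 in NK-like cells, and Adm reaches -1.96 in B-like cells.

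Taken over all kept cells outside the melanoma-like class, unnamed cells included, some members gave larger ratios than within macrophage-like cells. The libraries hold the classes in different shares. Ndrg1 was at 92.5 CPM in KO and 41.3 in WT (1.16), Hk3 at 19.7 CPM in KO and 9.54 in WT (1.05), and Adm at 4.84 CPM in KO and 13.6 in WT (-1.49). Within macrophage-like cells these genes had ratios of 0.13 for Ndrg1, 0.47 for Hk3 and 0.08 for Adm, the last below the minimum of UMIs. Of all 47 pairs of a member and a class past the limit, 19 stayed past it in every other setting that gave a value, and 1, Hk2 in CD8 T-like cells, changed sign.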

How the data were processed

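Droplet 3′ single-cell RNA sequencing (10x Genomics, kit version 3) was run on sorted CD45+ tumour cells, 1 library per genotype, with a target of 6000 to 8000 cells, per the labels' protocols. The deposited values are whole-number UMI counts per gene and barcode, made by the authors with bcl2fastq 2.20, Cell Ranger 3.1.0, Seurat 4.0.1 and GRCm38, per the submitters' processing notes, while the matrix header, per the file headers, names Cell Ranger 4.0.0. Identifiers were all found in GENCODE M21. The KO matrix held 6356 barcodes and 57047535 UMIs, the WT matrix 9677 barcodes and 55219440 UMIs, each barcode with at least 500 UMIs, and the libraries shared 63 barcode sequences.

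Barcodes were dropped where mitochondrial UMIs passed 15% or fewer than 200 genes were detected. Scrublet, with an expected rate of 6%, marked only 2 KO cells and 0 WT cells as doublets and therefore did not work as a filter. The marked cells were left out, other doublets may remain, and the highest 6% of scores were left out as an alternative. Clusters with a high mean score were left unnamed. These were cluster 17, at 0.202 with 35 KO and 218 WT cells, and cluster 24, at 0.206 with 7 KO and 205 WT cells. Both matched the B-cell marker list best, so these cells are not in the B-like class. Cells were clustered in scanpy 1.11.5 (Python 3.11.15) on 2000 variable genes that excluded the 33 members and the other pathway genes, with 30 principal components, 15 neighbours and Leiden resolution 1. Clusters were named from marker lists, and classes rebuilt in this way may differ from the study's own. UMIs were summed by class and library, and CPM, exact intervals (scipy 1.17.1), log2 ratios and isoform shares were computed. Of these, the log2 ratio and its interval were tested on simulated Poisson counts. That simulation holds no genes whose UMIs lie in few cells. A member with no UMI in a library would have been set to a floor of 3 counts. Genotypes are not replicated, so no test was made.

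The members, pathway lists and marker lists were chosen with earlier results of these data known. All 33 members are reported, every member past the limit is named in its class, and other genes are named as isoforms or, with an exception not reported here, where past the limit in macrophage-like cells, and in NK-like and Treg-like cells, which were added after their values were seen. Alternatives covered the variable genes, doublets, mitochondrial limit, resolution, denominator, per-cell means, melanoma marker UMIs, UMI minimum, ratio limit, depth and top cells. The largest cluster of each class was added after seeing the data. No amino acid sequence was used here.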

Additional observations from a re-analysis of the deposited data

Results flagged for a closer look

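A group of 6 members was higher in KO in 1 class and lower in KO in another, with ratios past the limit in both. These differences between classes were not tested, since each genotype is 1 library, and the values here are log2 ratios of KO over WT CPM. Between NK-like and B-like cells, Tpi1 was at 0.70 in NK-like and -0.88 in B-like cells, Pgk1 at 0.69 in NK-like and -0.77 in B-like cells, and Mif at 0.66 in NK-like and -0.63 in B-like cells. Between NK-like and gamma-delta T-like cells, Aldoa was at 0.59 in NK-like and -0.60 in gamma-delta T-like cells, and Ldha at 0.51 in NK-like and -0.67 in gamma-delta T-like cells. Pfkfb3 was at 0.53 in cDC1-like and -1.15 in B-like cells.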

How the results depend on the processing

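With 1 library per genotype no interval covers variation between mice or libraries, and rare classes rest on few UMIs. No paired analysis was possible because each genotype has 1 library. Among single ratios, 596 values under the alternatives stayed within counting error, 26 moved beyond it and 1 changed sign: Hk2 in CD8 T-like cells, at -0.22 without the 5 top cells. The 596 include 47 each from the ratio limit of 1.0, the minimum of 50 UMIs and no UMI minimum, which cannot change a ratio. The largest cluster is also the whole class in CD4 T-like, gamma-delta T-like, monocyte-like, NK-like, Treg-like and cDC1-like cells. Isoform shares stayed in 1457 and moved in 73, and the 1457 likewise include settings that cannot change a share.

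The name of the macrophage-like class depends on the clustering. With no mitochondrial limit 1253 of the 1365 cells of its largest cluster had no name, and macrophage-like cells then numbered 544 in KO and 444 in WT. At that setting 6 members were lower in this class, it was highest for 7 members in KO and 12 in WT, and the Hk3 share was 17.6% in KO and 18.2% in WT. At resolution 0.6 there was 1 lower member and the Hk3 share was 42.3% in KO and 34.4% in WT. With per-cell means the Hk3 share was 22.0% in KO and 17.2% in WT.

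The counts of members past the limit moved as follows. In macrophage-like cells the 1 higher member became 2 with the members among the variable genes, with the highest 6% of doublet scores left out, at a mitochondrial limit of 10% or in the largest cluster, 3 without the 5 top cells, and 0 with per-cell means or a limit of 1.0. In NK-like cells the 7 higher became 4 with per-cell means, 14 with no UMI minimum, 3 without the 5 top cells, 1 at thinned depth and 0 at a limit of 1.0. In B-like cells the 12 lower became 4 at a limit of 1.0. In migratory DC-like cells the 4 lower became 0 without the highest doublet scores, where Ero1l and P4ha1 had too few UMIs to be compared, 2 with no mitochondrial limit, at thinned depth or without the 5 top cells, and 1 at a limit of 1.0. In Treg-like cells the 4 higher became 2 with the members among the variable genes or with per-cell means, 10 without the highest doublet scores, 1 at thinned depth and 0 at a limit of 1.0. In cDC2-like cells the 3 higher became 1 in the largest cluster and 0 at a limit of 1.0, and the 3 lower became 5 with per-cell means and 1 at a limit of 1.0. Apart from the ratio limit and the UMI minimum, whose construction changes the count, the cause was not tested. Thinning leaves fewer UMIs, so members can fall below the minimum, but the 7 NK-like members were all still compared at thinned depth.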

Other observations

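Clusters without a class name also held members at high levels. Cluster 10, led by the proliferation genes Hist1h2ap and Pclaf among others, had 201 KO and 434 WT cells and a glycolysis sum of 8338 CPM in KO and 6475 in WT, with Ldha at 1028 CPM in KO and 801 in WT. Cluster 12, led by Gm26917 and Gm42418, had 323 KO and 358 WT cells. Its Hk2 was at 290 CPM in KO and 295 in WT, beside low Gapdh, at 552 CPM in KO and 571 in WT. Among clusters of at least 50 cells its Hk2 was highest in KO. In WT its Hk2, on 199 UMIs, was level with that of the melanoma-like cluster, at 293 CPM on 828 UMIs. The median depth of cluster 12 was 1891 UMIs in KO and 1603 in WT.

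The barcodes left out for their mitochondrial share, 665 in KO and 734 in WT, also had low Gapdh, at 436 CPM in KO and 469 in WT. Hk2 was at 222 CPM in KO and 132 in WT among them, the WT value below the 210 CPM of WT cells in cluster 6.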
